A study of Saccharum hybrid cultivar with 12 samples.

Results

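The 5 unigenes described here, c94499_g2, c86342_g1, c102490_g1, c83430_g5 and c89405_g1, were named as methyltransferases in the study. They were chosen by their expression in these same libraries: all 5 for a level higher in the high-sugar genotype HS, or in HS and MS, than in the low-sugar genotype LS, and c89405_g1 also for its increase after ethephon. They are 5 of 163054 unigenes, and all 5 passed the filter on low counts, which was applied over all 12 libraries. The filter left 54433 unigenes for testing. The differences between genotypes are therefore given as descriptions with no test, and so are the ethephon values of c89405_g1. The other 4, c94499_g2, c86342_g1, c102490_g1 and c83430_g5, were named for their level in the genotypes, and their ethephon effect was tested. The study drew its genes from pairwise comparisons that included ethephon against water, so the choice may not be fully free of these values.

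RNA came from the developing stem of 3 field-grown sugarcane genotypes. HS is the commercial variety ROC22, with a sucrose content of 15.0%. MS and LS are 1 non-commercial clone each, with 12.6% and 6.0%. Plants received a foliar spray of ethylene at 400 mg/L, prepared from ethephon (group T), or of water (group CK). The stem tissue for RNA was taken on a single day, days after the spray, so the ethephon effect at other times was not read. The 6 groups, HS_T, HS_CK, MS_T, MS_CK, LS_T and LS_CK, had 2 biological replicates each, which gave 12 libraries. Each sugar class is 1 genotype, so sugar content and every other property of a genotype cannot be told apart. In bulk stem RNA, fewer cells of a type and less RNA per cell cannot be told apart either.

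Methyltransferases move a methyl group from S-adenosylmethionine to DNA, RNA, protein or small molecules. In plants, DNA methyltransferases and the RNA-directed DNA methylation pathway silence transposons and some genes, histone methyltransferases set marks of active or silent chromatin, and O-methyltransferases act on the precursors of lignin, which is abundant in grass stems. S-adenosylmethionine is also the starting compound of ethylene synthesis, and ethephon releases ethylene inside the plant. The study placed these unigenes among modifiers of chromatin and DNA. Which substrate each of the 5 acts on is not given in the sources used here.

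Library totals ran between 19765600 and 28747100 expected counts, and the TMM scaling factors (trimmed mean of M-values) between 0.919 and 1.09. The counts of 2 replicates were further apart than counting error in each group (chi-square over its degrees of freedom of 5.65 to 21.4), so no library was a repeat of another. With 2 libraries a group, an exact permutation test cannot go below p = 0.333, and all tests below come from 1 model across the tested unigenes.

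The 5 unigenes differed by orders of magnitude in level and in the depth of the difference between genotypes. Levels between unigenes are compared in FPKM, the fragments of a unigene scaled by its length and by the mapped fragments of the library. In water-treated HS, c83430_g5 was the highest with 341 ± 140 FPKM (SD, n = 2), rank 326 of all unigenes. The others followed with 58.6 ± 8.47 FPKM for c94499_g2, 14.9 ± 3.23 for c102490_g1, 7.64 ± 0.820 for c89405_g1 and 2.29 ± 0.085 for c86342_g1. In water-treated LS the order was different: c102490_g1 led with 4.89 ± 0.552 FPKM, while c89405_g1 had 0.085 ± 0.021 and c83430_g5 0.035 ± 0.050. The plot of FPKM by library shows all 60 values.

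**Figure D1:**
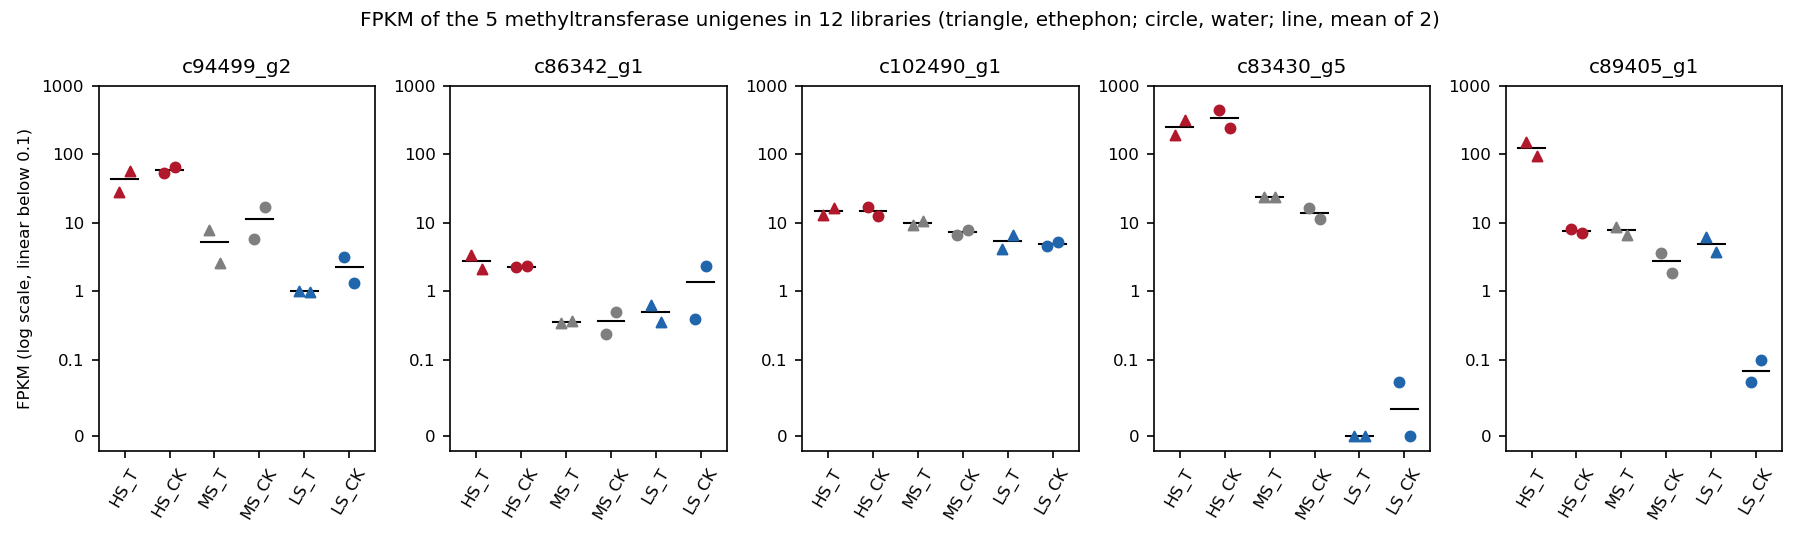
FPKM (vertical, log scale that is linear below 0.1) of each unigene in the 12 libraries, by group (horizontal); triangles are ethephon libraries, circles water libraries, and lines the mean of 2. HS libraries of c83430_g5 lie between 193 and 440 FPKM, while LS libraries lie at 0.07 or 0, and c89405_g1 is higher in both ethephon libraries than in both water libraries of each genotype.

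Both HS libraries lay above both libraries of the other genotype for nearly all of the 5. After ethephon this held for 5 of 5 unigenes against LS and for 5 of 5 against MS. Under water it held for 4 of 5 against LS and for 5 of 5 against MS. Over all tested unigenes, both HS_T libraries exceeded both LS_T libraries in FPKM for 28% and both HS_CK libraries exceeded both LS_CK libraries for 24%. Against MS the shares were 28.2% after ethephon and 27.5% under water. The choice of the 5 used these same differences, so nothing is read from their counts. The unigene outside the count against LS under water was c86342_g1, in FPKM only: in CPM, the counts scaled by TMM to an equal library size, all 5 were separated.

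The deepest difference was that of c83430_g5. It had 193 and 314 FPKM in HS_T and 440 and 242 in HS_CK. The MS libraries had 24.0 and 23.9 FPKM after ethephon and 16.4 and 11.2 under water. In LS the unigene had 0 FPKM in both ethephon libraries, and 0.07 and 0 FPKM under water. The 3 genotypes thus occupied separate ranges, with 11802 counts over the HS libraries, 1066 over MS and 1 over LS. The ratio of scaled counts was 8.64 for HS over MS after ethephon and 19.3 under water. Against LS after ethephon, HS was at least 1770-fold higher, taking 3 counts over the group as the limit that a count of 0 allows. Under water, where the 2 LS libraries held 1 count, the ratio was 7860 with a 95% interval of 1410 to 311000, which covers counting error only. For MS over LS, the level was at least 205-fold higher after ethephon, and the ratio was 407 under water, with an interval of 72.6 to 16100.

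The unigene c83430_g5 is 1 of 7 unigenes that the Trinity assembly placed in component c83430, a group of contigs that share sequence. The study took 1 unigene per subcomponent, so alleles or close copies of a gene can stand as separate unigenes of a component, and reads that match several of them were divided by estimate. Another unigene of the component had the opposite pattern: c83430_g6 had 0 counts in the HS libraries, 6 in the MS libraries and 16664 in the LS libraries. It reached 108 and 152 FPKM in LS_T and 204 and 108 FPKM in LS_CK, and was 0 FPKM in all 4 HS libraries. Relative to LS, c83430_g6 was at least 2260-fold lower in HS after ethephon and at least 2730-fold lower under water. The unigene c83430_g1 followed it, with 0, 1 and 923 counts in HS, MS and LS. The unigene c83430_g3 was counted in all 3 genotypes, with 444, 427 and 1995.

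Summed over the component, the difference between HS and LS seen in c83430_g5 was no longer present in that direction. The component total was 128 ± 43.8 CPM in HS_T and 200 ± 54.5 in LS_T (SD, n = 2 each), a ratio of 0.64 with the ranges apart. Under water it was 166 ± 59.7 in HS_CK and 226 ± 93.8 in LS_CK, a ratio of 0.733 with overlapping ranges. The component was low in MS, at 21.6 ± 0.580 CPM in MS_T and 15.4 ± 3.40 in MS_CK. HS over MS was accordingly 5.91 after ethephon and 10.8 under water, and MS over LS was 0.108 and 0.068. Of the component's counts, c83430_g5 took 92.8% to 96.9% in HS libraries, 53.8% to 66% in MS libraries and at most 0.0142% in LS libraries. This arrangement was counted over the assembly. Among 5644 components with at least 2 unigenes of at least 100 counts in HS or LS, 17 (0.301%) held one unigene with at least 100 counts in HS and at most 3 in LS beside another with at least 100 in LS and at most 3 in HS. Component c83430 was 1 of these, and no component of the other 4 unigenes was; the criterion was set with the values of c83430 known. Whether c83430_g5 and c83430_g6 are versions of 1 gene was not tested.

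**Figure D2:**
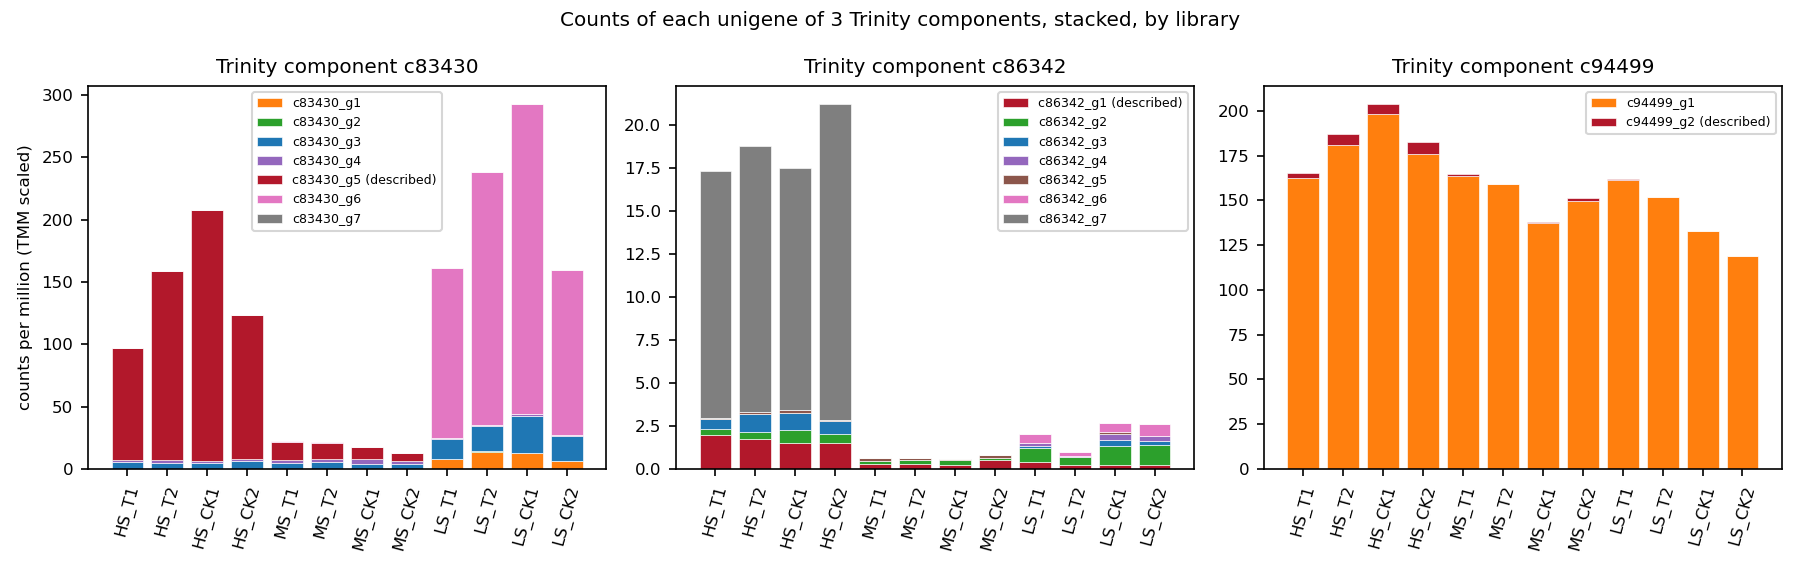
TMM-scaled CPM (vertical, linear from 0) in each library (horizontal) for components c83430, c86342 and c94499, stacked by unigene, with the described unigene in red. In c83430 the HS bars are nearly all c83430_g5 and the LS bars mostly c83430_g6; in c86342 the HS bars are mostly c86342_g7; in c94499 the described unigene is a thin cap on c94499_g1.

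The unigene c86342_g1 was the lowest of the 5 in HS and the one with the fewest counts in all, 140 over the HS libraries, 29 over MS and 26 over LS. It had 43 and 33 counts in HS_T and 34 and 30 in HS_CK. No MS or LS library had more than 10 counts, so the HS libraries were apart from all others. The ratio of scaled counts for HS over LS was 5.54 after ethephon and 6.59 under water, and for HS over MS 6.99 and 4.06. MS and LS were close to each other, with ratios of 0.792 after ethephon and 1.62 under water.

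In FPKM the picture for c86342_g1 under water was less clear. HS_CK had 2.23 and 2.35 FPKM, and LS_CK had 0.39 and 2.35 FPKM, so the groups overlapped. The second LS_CK library held 5 counts, like the 6 of the first, and its FPKM corresponded to a length of 93 bases. In the other 11 libraries the length implied by the count, the library total and the FPKM was between 557 and 1019 bases. How the effective length was set is not given in the sources used here, and the cause was not tested. Among 25230 unigenes with at least 20 counts in every library, the longest implied length was a median 1.1 times the shortest, and 13.1% exceeded 1.5 times. Without that library, both HS_CK libraries exceeded the remaining LS_CK library for all 5 unigenes.

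**Figure D3:**
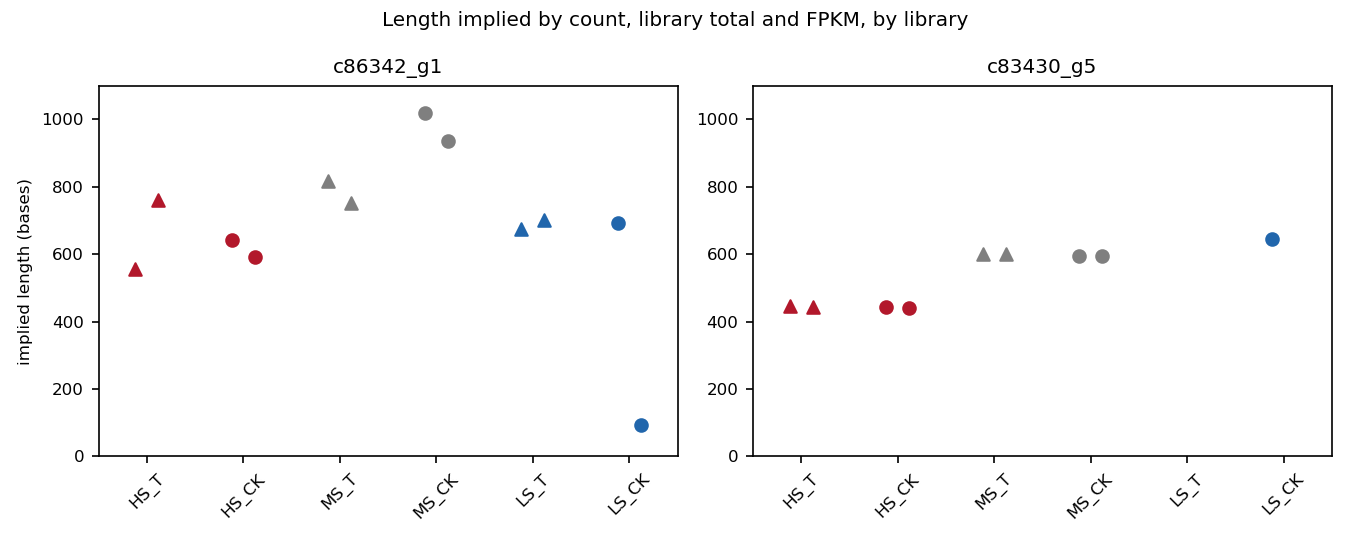
Length in bases (vertical) implied by the count, the library total and the FPKM, by group (horizontal), for c86342_g1 and c83430_g5; triangles are ethephon libraries and circles water libraries, and libraries with no count have no point. For c86342_g1 1 LS_CK library lies at 93 bases, and for c83430_g5 the HS libraries lie at 441 to 446 and the MS libraries at 595 to 600.

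The lengths implied for c83430_g5 also separated genotypes, at 441 to 446 bases in HS and 595 to 600 bases in MS. The HS over MS difference of this unigene is therefore larger in FPKM than in counts. For c94499_g2 the implied length was 93 to 124 bases, for c89405_g1 1288 to 1485 and for c102490_g1 4295 to 4830. Their FPKM and their counts gave the same order of HS, MS and LS in both treatments.

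Component c86342 held 7 unigenes, and its HS signal was mostly that of c86342_g7. That unigene had 312 and 296 counts in HS_T, 323 and 367 in HS_CK and 0 in all MS and LS libraries. It was at least 221-fold higher in HS than in LS after ethephon and at least 261-fold higher under water. Against MS it was at least 261-fold higher after ethephon and at least 219-fold higher under water. The described unigene, c86342_g1, made up 7.08% to 11.4% of the component in HS, 41.7% to 62.5% in MS and 7.81% to 26.3% in LS. The unigenes c86342_g4 and c86342_g6 had 22 and 47 counts in LS and none in HS or MS. The component total was higher in HS than in LS by 12-fold after ethephon and 7.38-fold under water, and higher than in MS by 29.6-fold and 28.3-fold.

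The unigene c94499_g2 was lower in MS than in HS and lower again in LS, within each treatment. It had 28.3 and 57.3 FPKM in HS_T and 52.6 and 64.6 in HS_CK. The MS libraries had 7.80 and 2.60 FPKM after ethephon and 5.76 and 16.7 under water, and the LS libraries had 1.01 and 0.97 after ethephon and 3.18 and 1.33 under water. HS was apart from both other genotypes, while MS_T and LS_CK overlapped. The ratio of scaled counts for HS over LS was 40.2 after ethephon and 29.9 under water, and for HS over MS 9.47 and 5.35. The LS values rest on 15 counts over 4 libraries, and the short implied length makes the FPKM of this unigene high for its 448 counts in HS.

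The partner of c94499_g2 in its component, c94499_g1, showed little of this difference. It had 15073 counts in HS, 14339 in MS and 13167 in LS. The described unigene made up 1.78% to 3.91% of the component in HS, 0.161% to 1.07% in MS and 0.0668% to 0.219% in LS. The component total in HS_T was 1.12 times that in LS_T, and in HS_CK it was 1.54 times that in LS_CK, with the ranges apart in both.

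The unigene c102490_g1 had the shallowest difference of the 5 and the most even level. It had 12.9 and 16.5 FPKM in HS_T and 17.2 and 12.6 in HS_CK. The MS libraries had 9.31 and 10.6 FPKM after ethephon and 6.63 and 7.82 under water. The LS libraries had 4.15 and 6.59 FPKM after ethephon and 4.50 and 5.28 under water. The ratio of scaled counts for HS over LS was 3.23 after ethephon and 3.53 under water, for HS over MS 1.65 and 2.05, and for MS over LS 1.95 and 1.72. It is the single unigene of its component, and with 6104, 3766 and 2012 counts in HS, MS and LS it was well covered in every library.

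The unigene c89405_g1 stood apart from the other 4 in its ethephon values, for which it was chosen. It had 151 and 95.5 FPKM in HS_T, against 8.22 and 7.06 in HS_CK. MS had 8.75 and 6.70 FPKM in MS_T, against 3.56 and 1.86 in MS_CK. LS had 6.23 and 3.68 FPKM in LS_T, against 0.07 and 0.10 in LS_CK. Ethephon libraries exceeded water libraries in each genotype. The estimated log2 fold change was 4.05 (SE 0.323) in HS, 1.52 (SE 0.321) in MS and 6.06 (SE 0.529) in LS, rank 100, 1842 and 95 from the top of the 54433 tested unigenes. The SE here and below is approximate, since it was calculated back from the F statistic of the edgeR quasi-likelihood fit. The LS estimate starts from 5 counts over the 2 LS_CK libraries. The estimates differed by 2.01 (SE 0.724) for LS minus HS, 4.54 (SE 0.677) for LS minus MS and -2.52 (SE 0.437) for MS minus HS, all on the log2 scale and without a test. The order of LS and HS depended on the scale: with limma on log2(FPKM + 1) the estimate was 2.42 in LS and 3.81 in HS.

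The order of HS, MS and LS for c89405_g1 was the same in both treatments, but the distances between them differed. After ethephon, the ratio of scaled counts was 25.1 for HS over LS, 17.6 for HS over MS and 1.43 for MS over LS. Under water the same ratios were 108, 2.95 and 36.7. MS lay nearer to HS than to LS under water and nearer to LS after ethephon, and MS_T at 7.73 ± 1.45 FPKM overlapped HS_CK at 7.64 ± 0.820 (SD, n = 2 each). Among unigenes with any FPKM in the group, c89405_g1 had its highest position in HS_T, at the 98.8th percentile of 101609. It had its lowest in LS_CK, at the 2.95th percentile of 111488. It is the single unigene of its component.

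None of the other 4 unigenes passed the test for an ethephon effect. The question was whether methyltransferases that differ between genotypes also respond to ethephon, and a call required an adjusted p under 0.005 (edgeR quasi-likelihood test, Benjamini-Hochberg over 54433 unigenes) and a fold change over 2. In HS 0 of 4 were called, against 0.011% of all tested unigenes, and in MS 0 of 4, against 0.00184%. In LS, where c83430_g5 had too few counts for a value, 0 of 3 were called, against 2.24%, and in the average over genotypes 0 of 3, against 0.974%. Of these 3, c94499_g2 and c86342_g1 held 15 and 26 counts over the LS libraries and passed the filter by other genotypes. With only the LS libraries in the filter, c102490_g1 alone of the 3 remained. With only the MS libraries, c86342_g1 did not pass. At an unadjusted p under 0.05 there were 0 of 4 in HS, against 4.02% of all tested unigenes, 1 of 4 in MS, against 12.3%, 0 of 3 in LS, against 24.5%, and 0 of 3 in the average, against 19%. DESeq2 and limma on log2(FPKM + 1) also called 0 of these unigenes in each contrast. DESeq2 gave no adjusted p for c86342_g1 in HS and in MS, so c86342_g1 could not be called there. With backgrounds this low for calls, and 3 or 4 unigenes, a count of 0 says little about these unigenes in any of the 4 contrasts.

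**Figure D4:**
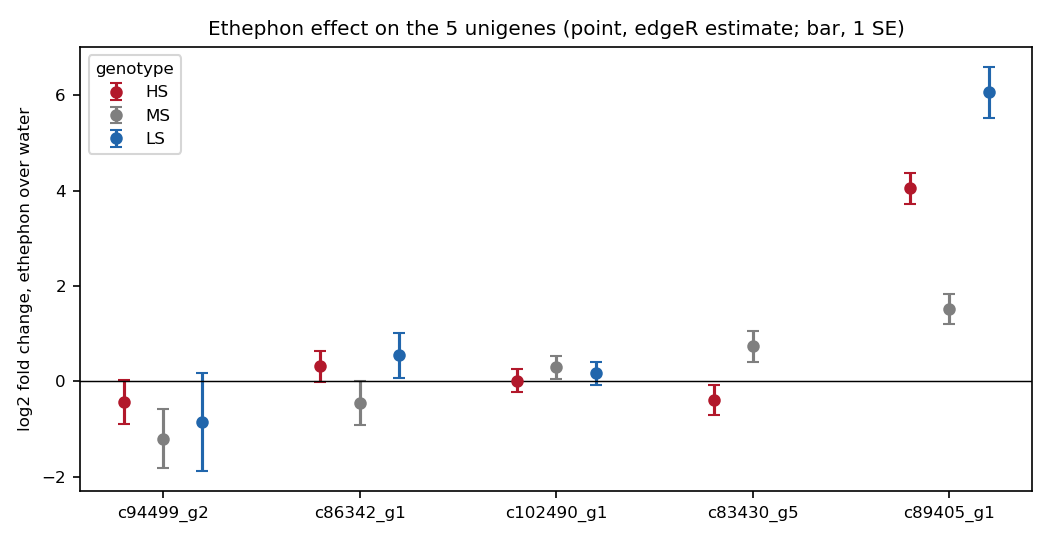
Log2 fold change of ethephon over water (vertical) for each unigene (horizontal) in HS, MS and LS. Points are edgeR estimates and bars 1 approximate SE, calculated back from the F statistic. The unigene c83430_g5 has no LS value. The estimates of c89405_g1 lie between 1.52 and 6.06, while those of the other 4 unigenes lie between -1.20 and 0.73.

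In HS no estimate exceeded 1.5 times its error. The log2 fold change was -0.43 (SE 0.467) for c94499_g2, 0.31 (SE 0.318) for c86342_g1, 0.02 (SE 0.240) for c102490_g1 and -0.39 (SE 0.306) for c83430_g5, all with an adjusted p of 1 in edgeR. The ethephon and water libraries of HS overlapped in FPKM for each of the 4. In CPM, c86342_g1 was higher in both HS_T libraries than in both HS_CK libraries, with a ratio of scaled counts of 1.25. Their median was -0.19, against 0 over all tested unigenes.

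In MS the estimates were wider apart. For c94499_g2 it was -1.20 (SE 0.616, edgeR adjusted p = 0.47) and for c86342_g1 -0.45 (SE 0.455, adjusted p = 0.783). For c83430_g5 it was 0.73 (SE 0.327), with an adjusted p of 0.403 in edgeR and the smallest unadjusted p of the 4, and both MS_T libraries were higher than both MS_CK libraries. With unigenes of low counts kept in the fit it was 0.78, with an adjusted p of 0.0047 in edgeR, under the limit for p and short of the limit for fold. For c102490_g1 it was 0.29 (SE 0.242, edgeR adjusted p = 0.686), also with both MS_T libraries above both MS_CK libraries in FPKM. The median of the 4 was -0.08, against 0 over all tested unigenes, and c86342_g1 did not pass the filter with only the MS libraries.

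In LS the estimate was -0.85 (SE 1.03) for c94499_g2, 0.55 (SE 0.473) for c86342_g1 and 0.17 (SE 0.245) for c102490_g1, with edgeR adjusted p-values between 0.566 and 0.738. The median of these 3, 0.17, was the value of c102490_g1, against -0.08 over all tested unigenes. Since c94499_g2 and c86342_g1 passed the filter by other genotypes, nothing is read from this median. The wide error of c94499_g2 goes with its 15 LS counts. Both its LS_T libraries were below both its LS_CK libraries in FPKM. For c86342_g1 the mean FPKM went against the estimate, with 0.49 in LS_T and 1.37 in LS_CK, where the second LS_CK library had the short implied length. Averaged over the 3 genotypes, the effect was -0.83 (SE 0.430) for c94499_g2, with an adjusted p of 0.34 in edgeR. The averages were 0.14 (SE 0.245) for c86342_g1 and 0.16 (SE 0.140) for c102490_g1.

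No call was made for these unigenes when the ethephon effects of 2 genotypes were compared. For LS minus HS and LS minus MS, 0 of 3 were called, against 0.0386% and 0.351% of all tested unigenes. The low LS counts of c94499_g2 and c86342_g1 limit these contrasts too. For MS minus HS, 0 of 4 were called, against 0% of all tested unigenes, where edgeR found 3178 at an unadjusted p under 0.05, DESeq2 called 56 and limma 0. The smallest unadjusted p belonged to c83430_g5 in MS minus HS, with a log2 difference of 1.12 (SE 0.447) and an adjusted p of 0.835 in edgeR. It combines higher MS_T than MS_CK values with HS values that overlapped. This difference was called when unigenes with low counts were kept in the fit, at 1.18 with an adjusted p of 0.00194, a setting in which edgeR called 1058 unigenes. At an unadjusted p under 0.05 with the filter there was 1 of 4 in MS minus HS, against 5.84% of all tested unigenes, 0 of 3 in LS minus HS, against 11.7%, and 0 of 3 in LS minus MS, against 13.6%.

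The other methyltransferases and the acetyltransferases that the study named were read in the same contrasts. The methyltransferases were chosen there for their level in the genotypes, 3 as low in HS and 9 as high in LS. The 4 acetyltransferases were named for differing between the clones and also in response to ethylene. Their ethephon values were thus part of that choice and are given as a description. All 16 were tested, and 0 rose and 0 fell in edgeR in each of the 7 contrasts, where between 0% and 2.24% of all tested unigenes were called, so that nothing is read from these counts. At an unadjusted p under 0.05 there were 3 of 16 in LS, 2 of them acetyltransferases, against 24.5% of all tested unigenes. In the average over genotypes there were 2 of 16, 1 of them an acetyltransferase, against 19%. In the other 5 contrasts there were 0 of 16. The shares of all tested unigenes there were 4.02% in HS, 12.3% in MS, 11.7% in LS minus HS, 13.6% in LS minus MS and 5.84% in MS minus HS. The median log2 fold change of the 9 methyltransferases high in LS was -0.14 in HS, 0.06 in MS and -0.01 in LS. For the 3 low in HS it was -0.14, -0.05 and -0.17. The methyltransferase c85603_g1 had -0.68 in LS (edgeR adjusted p = 0.155). The unigene c99770_g1, of the 9 high in LS, had -0.16 in HS, 0.62 in MS and -0.01 in LS. The study reported a marked decrease of this transcript after ethylene in every genotype, by quantitative PCR. Its ethephon response was thus known beforehand, and its values are a description. Its MS estimate had the opposite sign to that report, and the cause was not tested. As a description, the acetyltransferase c121832_g1 had -0.97 in LS, and the acetyltransferase c86464_g1 had 0.36 in the average over genotypes. The ethylene response factor c81582_g1, a transcription factor of the ethylene pathway, had -0.42 in HS, 0.14 in MS and -0.47 in LS, with no call. By quantitative PCR, the study reported a higher level of this transcript after ethylene in every genotype. Its ethephon response was thus known beforehand, and the values here are a description. The estimates in HS and LS had the opposite sign to that report, and the cause was not tested.

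**Figure D5:**
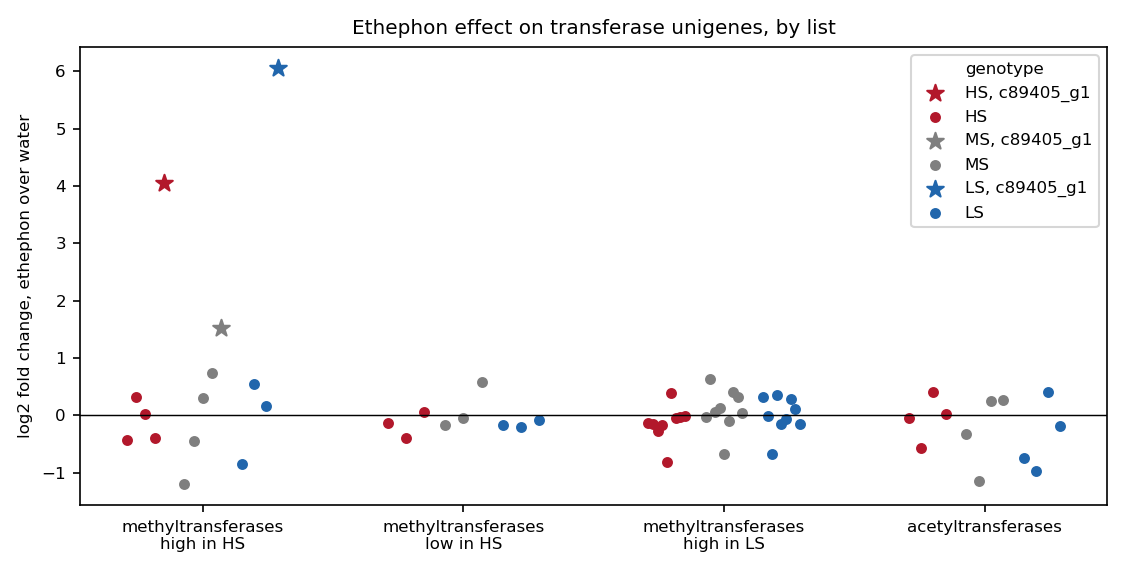
Log2 fold change of ethephon over water (vertical) for the unigenes of 4 lists (horizontal), by genotype; each point is 1 unigene, and stars mark c89405_g1. Other than c89405_g1, no point lies above 0.73 or below -1.20.

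Across the 12 libraries, the 5 unigenes varied together to different degrees. Pearson's r of log2 CPM was highest for c102490_g1 with c83430_g5, at 0.942, and lowest for c94499_g2 with c89405_g1, at 0.597. All 10 pairs were positive. The 12 libraries share 3 genotypes by which the 5 were chosen, so these values are a description.

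The unigenes most like each of the 5, outside its own component, were found by the same measure. For c83430_g5 the nearest were c90681_g1 and c83415_g2, both with r = 0.997, and c58197_g1 with 0.995, and 445 tested unigenes had an r over 0.95. The unigene c90681_g1 had 39.8 ± 2.57 FPKM in HS_T and 1.57 ± 0.021 in LS_T, and c83415_g2 had 4.88 ± 0.686 FPKM in HS_T and 0 in LS_T. For c86342_g1, 512 unigenes had an r over 0.95, led by c136131_g1 at 0.985. That unigene had 29 counts in HS_T, 24 in HS_CK, 1 in MS_CK and 0 in the other groups, so its r rests on few counts. For c94499_g2, 105 unigenes had an r over 0.95, led by c94429_g1 at 0.981, and for c102490_g1 48, led by c74409_g1 at 0.975. The pattern of c89405_g1 was shared by few, with 2 unigenes over 0.95, c99693_g2 at 0.962 and c91507_g3 at 0.957. The unigene c99693_g2 had 56.1 ± 20.7 FPKM in HS_T, against 25.9 ± 3.00 in HS_CK. In MS it had 37.7 ± 4.68 FPKM in MS_T, against 19.3 ± 3.44 in MS_CK. In LS it had 41.6 ± 4.48 FPKM in LS_T, against 6.49 ± 1.37 in LS_CK. It was higher after ethephon in all 3 genotypes, with smaller ratios than c89405_g1. It was picked by its r to a unigene chosen for its ethephon values, so this is a description. The next in r was c87029_g1, at 0.933. In HS its mean FPKM was lower after ethephon, 1.68 ± 1.06 against 2.30 ± 1.36, while its mean CPM was higher, 2.78 against 2.09. In MS and LS both means were higher after ethephon.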

How the data were processed

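Developing stem RNA of 3 sugarcane genotypes, with 2 biological replicates per genotype and treatment, was sequenced in 12 libraries. The authors assembled the trimmed reads with Trinity, took 1 unigene per subcomponent and estimated the deposited expected counts by RSEM, which divides reads matching several unigenes. The authors also deposited FPKM values, scaled by length and mapped fragments. Between 0.893% and 1.19% of counts were not whole and all were rounded for testing. Unigenes with low counts were removed with filterByExpr (minimum count 10), leaving 54433 of 163054. Counts were TMM scaled and tested with edgeR 4.0.16 (glmQLFit, glmQLFTest) in R 4.3.3, with 1 coefficient per group over the 12 libraries and Benjamini-Hochberg adjustment. A call needed an adjusted p under 0.005 and a fold change over 2, the study's limits. The SE given is the size of the log2 fold change over the square root of its F statistic, and is approximate. The script was tested on simulated data.

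Alternatives were DESeq2 1.42.0, its size factors, limma 3.58.1 on log2(FPKM + 1) and log2(FPKM + 0.1), no filter, other thresholds, only the compared libraries, a replicate block, component sums and each library left out. The 5 unigenes, the lists and the rule for named unigenes (the 5, their components, the 3 unigenes with the highest r to each, and the other transferases and 1 ethylene response factor of the study, the 2 with the smallest p where none was called) were chosen with earlier results of these data known. Correlations used log2 CPM with a prior count of 2. Intervals and floors (3 counts) cover counting error only. Figures were drawn with matplotlib.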

Additional observations from a re-analysis of the deposited data

How the results depend on the processing

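The number of the 5 unigenes with separated HS libraries was 4 or 5 under each alternative, but the 4 were not always the same. In FPKM, c86342_g1 was not separated from LS under water. In the component sums this was component c83430, with HS over LS at 0.64 after ethephon and 0.733 under water. The shares over all tested unigenes, 24% to 28.2%, were taken in FPKM only. The 5 were chosen by these same differences, so nothing is read from their number. The number of ethephon calls was 0 under each alternative but MS minus HS without the filter on low counts, where c83430_g5 was called (1 of 4). Some alternatives tested fewer than the 3 or 4 of the main fit. With only the libraries compared, c94499_g2 and c86342_g1 dropped out in LS, and c86342_g1 in MS. DESeq2 gave no adjusted p for c86342_g1 in HS and in MS. With so few calls over all unigenes, counts that remain at 0 show no stability. Calls over all unigenes varied with the tool, the filter and the threshold. In HS, MS, LS, the average, LS minus HS, LS minus MS and MS minus HS, edgeR called 6, 1, 1217, 530, 21, 191 and 0, DESeq2 91, 683, 2682, 1121, 865, 1184 and 56, limma on log2(FPKM + 1) 7, 14, 1194, 280, 28, 129 and 0, edgeR without the filter 863, 1845, 4293, 1885, 1739, 1809 and 1058, and edgeR at an adjusted p under 0.05 with no fold limit 19, 301, 5201, 3151, 548, 1072 and 0.

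The replicate numbers were not taken as pairs, since differences between replicates 1 and 2 correlated between T and CK at 0.239 in HS, -0.111 in MS and -0.0177 in LS. Between genotypes the highest were 0.375 for HS_CK with MS_CK and 0.284 for HS_T with MS_CK. The replicate block gave 8, 26, 1289, 558, 26, 248 and 2 calls in the same 7 contrasts and called 0 of the described unigenes; with it c102490_g1 in HS was -0.012.

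The direction of several uncalled log2 fold changes turned. With limma at a pseudocount of 1 and of 0.1, c102490_g1 in HS was -0.0162 and -0.0169 and c86342_g1 in LS -0.54 and -0.929, and at 0.1 c86342_g1 in MS was 0.00983. The sums of whole components, which are mostly other unigenes, gave -0.1 in HS and -0.784 in LS for that of c86342_g1, and 0.165 in MS and 0.311 in LS for that of c94499_g2. With each library left out, c83430_g5 in HS ranged between -0.817 and 0.0711, c102490_g1 in HS between -0.169 and 0.194 and in LS between -0.275 and 0.519, c94499_g2 in HS between -1.07 (without the second HS_T) and 0.0175, and c86342_g1 in MS between -0.868 and 0.15. With its sign kept, c94499_g2 ranged between -2.12 (without the first MS_T) and -0.432 (without the second MS_CK, and -0.531 without the second MS_T) in MS, and between -1.33 (without the second LS_CK) and -0.112 (without the first LS_CK) in LS. The libraries whose removal turned the sign were the first HS_CK for c83430_g5, the second HS_T, the second HS_CK and, in LS, the second LS_T for c102490_g1, the first HS_T for c94499_g2 and the second MS_CK for c86342_g1. The estimate of c89405_g1 in MS was 2.02 without the first MS_CK library and 1.17 without the second. Its LS estimate was 2.42 and 4.73 with limma at pseudocounts of 1 and 0.1, and its HS estimate 3.81 and 3.96. The LS estimate was thus below that of HS at a pseudocount of 1 and above it at 0.1. Apart from the component sums, the cause was not tested. Depth limits c83430_g5 and c94499_g2 in LS and c86342_g1 in MS and LS.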
